A study of Mus musculus with 16 samples.

Results

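The comparison described here sets α6+/CD34+ hair follicle stem cells (HFSCs) against α6+/CD34- progenitors in organoid cultures that had received N1-acetylspermidine (N1-AcSpd). The libraries were taken by their labels, which gave 8 of the 16 libraries of the series: 4 of CD34+ cells and 4 of CD34- cells, from the same 4 mice. The other 8 libraries were the same fractions of the same mice from untreated cultures, and they are used only where a value in both conditions is given. All cultures held epidermal cells of C57BL/6J mice with hair follicles in telogen, the resting phase of the hair cycle, and were grown in the 3D–3C organoid system for 2 weeks. N1-AcSpd was given for 72 h, and its concentration was not used here. Cells were then sorted on integrin α6, a basal surface protein, and CD34, so the groups are cells at 1 time point of a culture and not cells taken directly from a follicle. RNA was counted with unique molecular identifiers (UMIs), short tags that let copies of 1 captured molecule be counted once.

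The bulge is the niche of the hair follicle where quiescent stem cells reside. In mice, bulge cells carry CD34 and integrin α6 on their surface and depend on transcription factors such as SOX9 and LHX2, whereas cells that leave the basal layer switch on suprabasal keratins and then the proteins of the cornified envelope. Polyamines are small cations needed for growth and for translation, and N1-AcSpd is the acetylated form of spermidine, made when cells break down or export polyamines.

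The 8 libraries held between 15480075 and 29074855 UMIs. The 4 CD34- libraries were the deeper ones on average (26768371 ± 1807400 against 18681074 ± 5061200 UMIs, mean ± SD, n = 4 each), with CD34+ replicate 1 at 26233887 and the other CD34+ libraries at 16715068 or less. This difference had p = 0.0857 in an exact two-sided permutation test, in which 4 against 4 libraries cannot go below 0.0286. Between 22297 and 24247 genes had at least 1 UMI. Levels are given in CPM, UMIs scaled to a common library size by the trimmed mean of M values, and a log2 fold change is always CD34+ minus CD34-. A gene is said to be called where the adjusted p of edgeR's quasi-likelihood test, corrected over all 19049 genes tested, was under 0.05.

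The sort held at the level of RNA. Cd34 was counted at 3.22, 2.88, 3.31 and 3.65 CPM in the CD34- libraries and at 52.1, 45.5, 51.7 and 64.1 CPM in the CD34+ libraries. Cd34 was the marker of the sort, so these values describe the gates and are no finding, and its counts were nearly the same as those of the antisense gene Gm16897, from which they cannot be separated without strand. Itga6, which both gates required, was at 54.1 ± 2.86 CPM in CD34- and 48.0 ± 2.80 CPM in CD34+ cells. Its log2 fold change of -0.17 ± 0.06 (SE) had an adjusted p of 0.0437 and was not called in 14 of the alternative fits.

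Among the largest increases in CD34+ cells were those of the bulge genes Krt15 and Postn, and among the largest decreases those of Lce3e, a gene of late differentiation, and Defb14, a defensin gene. In all, 6347 of 19049 genes were called, which is 33.3% of those tested. Of these, 3147 were higher in CD34+ cells, or 16.5% of all genes tested, and 3200 were lower, or 16.8%. Most differences were small: 641 of the higher and 655 of the lower genes passed a log2 fold change of 1, and 54 and 79 passed 3. The 4 CD34+ values and the 4 CD34- values did not overlap at 6555 genes, 34.4% of those tested, and among the called genes this was so for 5559. These shares are the background against which the counts of each gene list below are read. In sorted bulk RNA, fewer cells of a type and less RNA per cell cannot be told apart. Scaling by library totals alone moved the median log2 fold change of all genes from -0.0068 to 0.109 and the share of calls that were higher from 49.6% to 71.6%, so small changes are relative to the scaling.

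**Figure D1:**
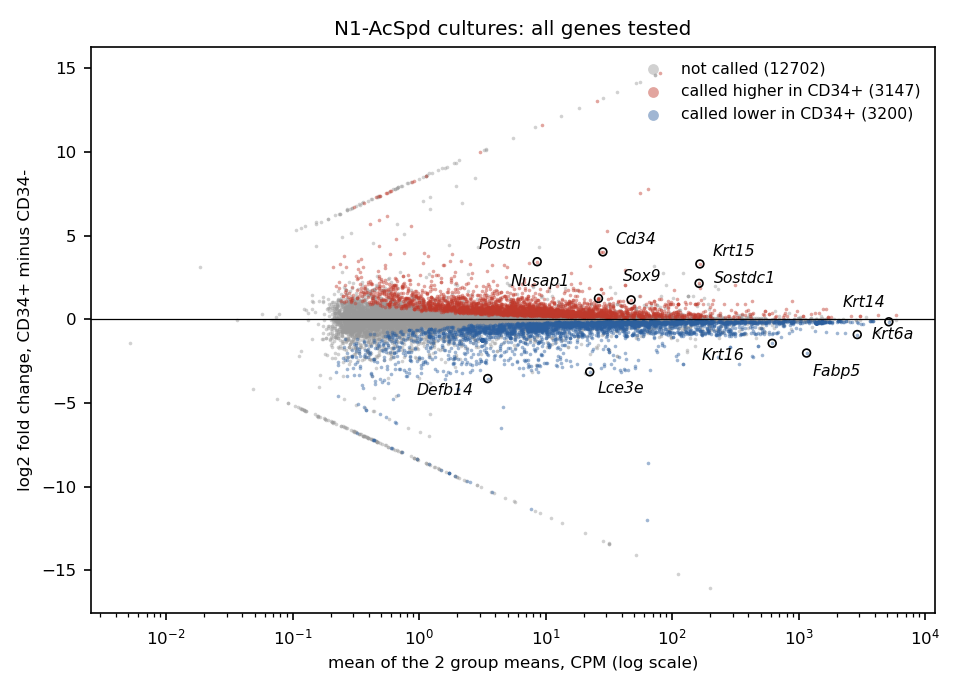
Log2 fold change (CD34+ minus CD34-, N1-AcSpd) of the 19049 genes tested against their mean level in CPM on a log scale, each point 1 gene, red where called higher, blue where called lower and grey where not called. Krt15, Postn and Sostdc1 lie far above 0, Lce3e, Defb14 and Fabp5 far below, and Krt14 lies close to 0. The straight diagonals are formed by the 284 genes with no count in 1 of the 2 groups, 34 of them called.

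CD34+ cells carried more RNA of the genes that mark and maintain the bulge. Krt15, a keratin of bulge cells, Postn, which encodes the matrix protein periostin, and Cspg4, a transmembrane proteoglycan, were 9.90, 10.9 and 10.3 times as abundant as in progenitors. Of 15 bulge transcription factors tested, 12 were called higher and 1 lower, with a median log2 fold change of 1.06, and of 18 bulge surface and secreted markers, 11 were called higher and 1 lower, with a median of 1.22. Over all genes tested the median was -0.0068. The 1 surface marker called lower was Itga6, which both gates required and whose call was lost in many alternative fits, as given above. Without genes that share counts with an overlapping gene, 9 of 14 surface and secreted markers were higher, with a median of 1.94.

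Krt15 (ENSMUSG00000054146; GRCm38 chromosome 11, 100131758 to 100135928) was at 31.3, 33.0, 27.3 and 29.7 CPM in the CD34- libraries of mice 1 to 4 and at 239, 309.9, 267 and 386 CPM in the CD34+ libraries. Every CD34+ value was above every CD34- value (log2 fold change 3.31 ± 0.15, SE; edgeR adjusted p = 1.18e-08). Postn (ENSMUSG00000027750; chromosome 3, 54361109 to 54391037) was at 1.53, 1.35, 1.48 and 1.40 CPM in CD34- and at 14.6, 13.3, 16.7 and 18.1 CPM in CD34+ cells. The groups lay apart, and the log2 fold change was 3.44 ± 0.17 (adjusted p = 2.49e-08). Cspg4 (ENSMUSG00000032911; chromosome 9, 56865033 to 56899870) was at 1.45, 1.21, 1.10 and 1.44 CPM in CD34- and at 13.9, 13.3, 12.5 and 13.8 CPM in CD34+ cells. Its 4 CD34+ values were nearly alike, and the log2 fold change was 3.36 ± 0.12 (adjusted p = 1.39e-09). The other large increases with groups that did not overlap were Ptn, which encodes the growth factor pleiotrophin (0.889 ± 0.301 to 8.54 ± 1.80 CPM), Ttr, the thyroxine carrier transthyretin (4.38 ± 0.831 to 40.5 ± 6.42 CPM), Susd2 (1.01 ± 0.109 to 8.89 ± 1.09 CPM), Pip (9.78 ± 0.597 to 75.2 ± 3.31 CPM) and Fxyd6 (0.811 ± 0.324 to 6.04 ± 0.927 CPM).

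Among the regulators, Sox9, which maintains bulge cells, was at 25.6, 32.5, 26.1 and 32.6 CPM in CD34- and at 56.8, 59.5, 60.3 and 85.0 CPM in CD34+ cells. The highest CD34+ value was that of mouse 4, and no value of one fraction reached the other (log2 fold change 1.16 ± 0.14, adjusted p = 3.05e-05). Lhx2, a LIM homeobox factor that keeps stem cells undifferentiated, was counted at 0.537, 0.568, 0.494 and 0.738 CPM in CD34- and 3.46, 2.33, 2.82 and 3.41 CPM in CD34+ cells. Its log2 fold change of 2.35 ± 0.20 was the largest called increase in this list. Nfib (15.2 ± 1.25 to 37.1 ± 1.92 CPM) and Id2 (19.5 ± 3.84 to 38.1 ± 7.97 CPM) were also higher. Hopx, a homeobox gene expressed in part of the bulge, was the 1 regulator called lower, at 3.87 ± 1.19 CPM in CD34- and 1.44 ± 0.490 CPM in CD34+ cells (log2 fold change -1.42 ± 0.26).

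**Figure D2:**
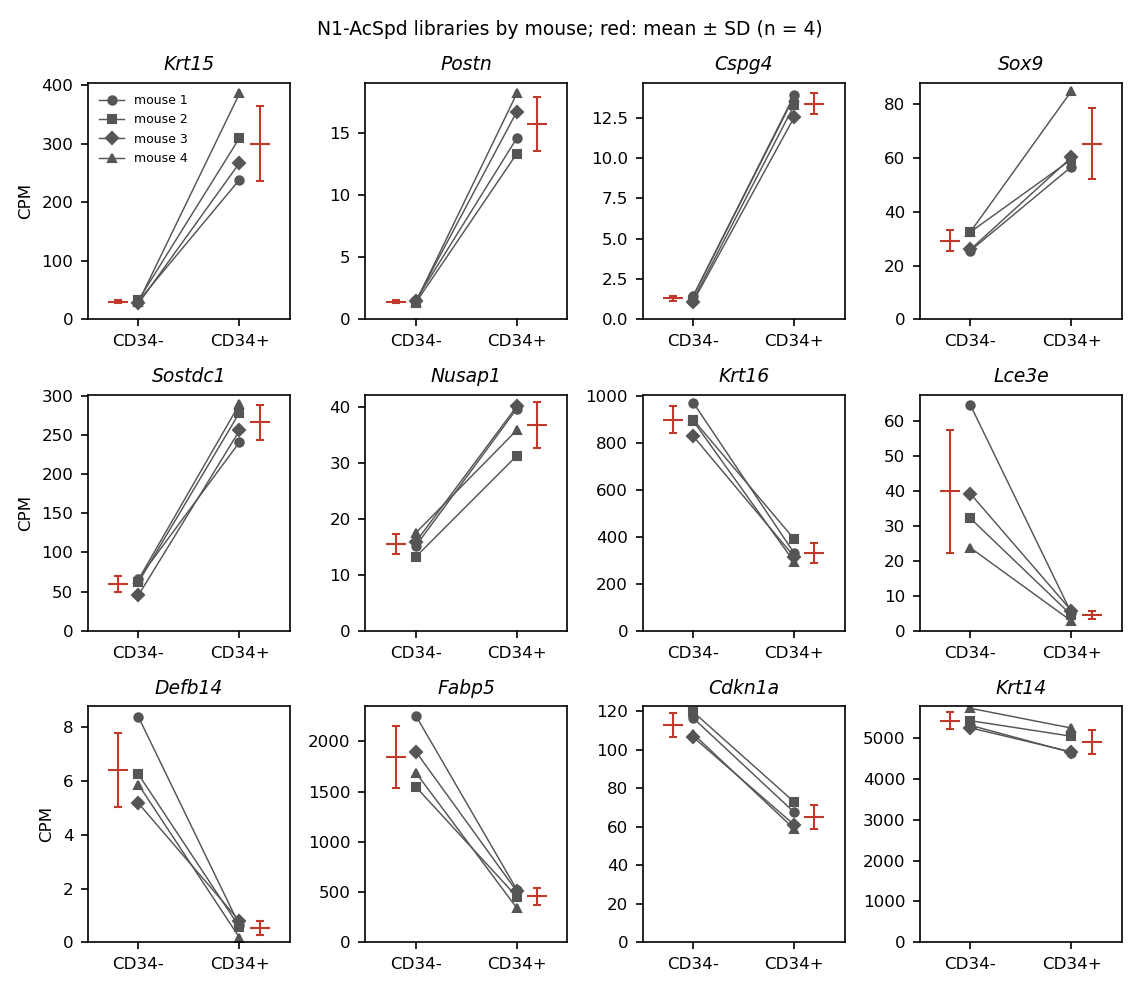
CPM (linear axis from 0) of 12 genes in the 8 N1-AcSpd libraries; each line joins the CD34- and CD34+ libraries of 1 mouse, marked by symbol, and the red bars give the mean ± SD of 4 libraries. Krt15, Postn, Cspg4, Sox9, Sostdc1 and Nusap1 rise in all 4 mice, Krt16, Lce3e, Defb14, Fabp5 and Cdkn1a fall in all 4, and Krt14 changes little against its level.

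Markers of the outer root sheath and inner bulge went both ways. Of 17 tested, 9 were called lower and 4 higher, and the median was -1.08. Krt6a, Krt16 and Krt17, keratins of the companion layer, the inner bulge and activated keratinocytes, were all lower. Krt16 was at 973, 900.4, 829.9 and 895 CPM in CD34- and at 332, 391.5, 316 and 294 CPM in CD34+ cells, so the groups lay well apart (log2 fold change -1.43 ± 0.10, adjusted p = 4.38e-07). Krt6a went from 3785 ± 257 to 2013 ± 146 CPM and Krt17 from 2948 ± 171 to 1690 ± 91.8 CPM. Cst6, the protease inhibitor cystatin M/E, had the largest called decrease of the list, from 22.6 ± 5.06 to 3.64 ± 0.652 CPM. Sostdc1, a secreted inhibitor of BMP and Wnt signalling, ran the other way, with 66.6, 62.2, 45.6 and 65.6 CPM in CD34- and 241, 278, 256 and 289 CPM in CD34+ cells. This was the largest called increase of the list (log2 fold change 2.15 ± 0.11, adjusted p = 4.21e-08).

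The keratins and anchoring genes of basal cells differed in both directions. Of 20 basal attachment genes, 6 were called higher and 4 lower, a larger share than the 33.3% called of all genes. The groups did not overlap at 10 of the 20. Changes of both signs, from -0.57 to 0.87 on the log2 scale, left a small median of 0.080. With scaling by library totals 10 were higher and 1 lower. Krt5 was at 1127 ± 57.8 CPM in CD34- and 1104 ± 143 CPM in CD34+ cells and was not called. Krt14, its partner in basal keratin filaments, was at 5418 ± 212 and 4889 ± 295 CPM, a difference of -0.15 ± 0.05 on the log2 scale (adjusted p = 0.0289, edgeR) that was -0.03 and not called when scaled by library totals, and not called in 9 alternatives in all. Dst, which encodes dystonin, was at 2063 ± 59.0 and 1994 ± 84.7 CPM and was not called. Col7a1, the anchoring fibril collagen, was the largest called increase of the list (5.58 ± 1.03 to 10.2 ± 1.11 CPM). Of 26 matrix and matricellular genes, 12 were higher and 5 lower, with a median of 0.57. Thbs1, the adhesive glycoprotein thrombospondin 1, was at 3.63, 4.79, 2.89 and 4.92 CPM in CD34- and at 20.9, 26.4, 21.97 and 40.8 CPM in CD34+ cells. Tgfbi went from 63.7 ± 5.72 to 116 ± 12.4 CPM, and Fn1, which encodes fibronectin, from 47.4 ± 3.19 to 24.1 ± 2.21 CPM.

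Progenitors carried the RNA of terminal differentiation. Of 49 suprabasal keratins and cornified envelope genes, 44 were called lower in CD34+ cells and 2 higher, with a median of -2.67. The genes of this list lie mostly in the epidermal differentiation complex on GRCm38 chromosome 3, and of the 52 coding genes tested between S100a9 and S100a10 (90692632 to 93564643), 44 were called lower and 2 higher, with a median of -2.63. The late cornified envelope genes of the Lce3 group, which are induced in stressed and healing epidermis, took 4 of the 10 places for the largest decreases.

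Lce3e (ENSMUSG00000074433; chromosome 3, 92967061 to 92968281) was at 64.6, 32.2, 39.3 and 23.8 CPM in CD34- and at 5.05, 4.498, 5.77 and 2.82 CPM in CD34+ cells. Mouse 1 had the highest progenitor value, and no CD34+ value reached the progenitors (log2 fold change -3.14 ± 0.35, adjusted p = 1.03e-05). Lce3a (15.7 ± 7.16 to 1.79 ± 0.614 CPM), Lce3c (118 ± 46.2 to 14.2 ± 3.29 CPM), Lce3d (69.5 ± 27.3 to 8.43 ± 2.13 CPM) and Crct1 (76.0 ± 30.1 to 9.17 ± 2.75 CPM) had log2 fold changes between -3.13 and -3.04. The wide SD in the CD34- fraction came with a fixed order of the mice in these 5 genes, mouse 1 being the highest and mouse 4 the lowest in each. Krt78, a keratin of differentiated cells, had the largest called decrease of the list at low counts (1.07 ± 0.624 to 0.0672 ± 0.0612 CPM; log2 fold change -3.79 ± 0.64). The small proline-rich paralogs Sprr2a1, Sprr2a2 and Sprr2a3 stood apart from the list. Sprr2a2 was at 6598, 5013, 4953 and 4834 CPM in CD34- and at 6503, 6181, 7001 and 6241 CPM in CD34+ cells, a log2 fold change of 0.28 ± 0.08 (adjusted p = 0.0207). In the 8 N1-AcSpd libraries alone 0 genes of the list were called higher, and the calls of Sprr2a2 and Sprr2a3 were each lost in 8 alternatives. The highest progenitor value of Sprr2a2 lay above 3 of the 4 CD34+ values. Sprr2a1 was at 4697 to 6469 CPM in 6 of these libraries and at 16.4 and 14.3 CPM in CD34+ replicates 3 and 4. These genes are near-identical, so their levels are uncertain, and how their reads were divided was not tested. With these genes at the top of the list, the summed level of the 49 genes ran from 16962 to 23434 CPM in CD34- and from 12083 to 19157 CPM in CD34+ cells, and its share of all UMIs was 1.83 ± 0.284% and 1.65 ± 0.353% (exact permutation p = 0.486).

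The enzymes and regulators of the barrier went the same way. Of 28 barrier lipid and crosslinking enzymes, 21 were called lower and 0 higher, with a median of -1.66. Asprv1, a skin aspartic protease that processes filaggrin, was at 84.8, 38.8, 45.5 and 31.5 CPM in CD34- and at 8.36, 8.14, 7.06 and 5.17 CPM in CD34+ cells. Alox12b, a lipoxygenase of the lipid envelope, went from 2.77 ± 0.880 to 0.323 ± 0.108 CPM, and Sdr9c7, which acts on the same lipids, from 4.69 ± 1.26 to 0.563 ± 0.323 CPM. Of 23 differentiation transcription factors, 14 were called lower and 2 higher, with a median of -0.64. Prdm1, which encodes BLIMP1, a repressor active in terminal differentiation, was at 6.69, 3.69, 4.56 and 2.58 CPM in CD34- and at 0.743, 0.797, 0.737 and 0.411 CPM in CD34+ cells (log2 fold change -2.69 ± 0.30). The 2 called higher were Barx2 (2.65 ± 0.243 to 9.56 ± 1.24 CPM) and Trp63, the master regulator of basal epidermis (76.7 ± 5.05 to 101 ± 4.84 CPM). Barx2 is also among the outer root sheath and inner bulge markers above.

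Among proteases and their inhibitors, 24 of 26 genes were called lower and 1 higher, with a median of -2.29. Klk12, a kallikrein, had the largest called decrease (0.839 ± 0.0858 to 0.0563 ± 0.0650 CPM; log2 fold change -3.66 ± 0.86, counts shared with the overlapping gene 2310002F09Rik). Stfa1 (976 ± 227 to 478 ± 119 CPM) and BC100530 (2553 ± 530.1 to 1426 ± 341 CPM) belong to the stefin A family of cathepsin inhibitors. Serpinb5, which encodes maspin, went from 485 ± 28.4 to 367 ± 8.66 CPM. Cst3, the secreted inhibitor cystatin C, was the 1 member called higher (148 ± 10.5 to 199 ± 6.27 CPM).

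Of 27 desmosome and tight junction genes, 22 were called lower and 1 higher, with a median of -0.74. Perp, a desmosomal target of p63, was at 1195, 1074, 1091 and 1135 CPM in CD34- and at 761, 806, 757 and 793 CPM in CD34+ cells. The groups were tight and did not overlap (log2 fold change -0.53 ± 0.05, adjusted p = 2.79e-06). Dsc3 and Dsp, which belong to desmosomes of basal cells too, had smaller differences of -0.42 ± 0.09 and -0.23 ± 0.04, whereas Dsc1, a desmocollin of upper layers, went from 3.92 ± 1.63 to 0.420 ± 0.0918 CPM (-3.20 ± 0.36). The 1 gene called higher, Dsg2, shared nearly all its counts with the overlapping gene Gm16090.

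Of 12 antimicrobial genes, 7 were called lower and 1 higher, with a median of -1.03. Defb14 (ENSMUSG00000046354; chromosome 8, 19194357 to 19195212), a beta-defensin of epithelia, was at 8.38, 6.25, 5.17 and 5.87 CPM in CD34- and at 0.631, 0.569, 0.798 and 0.176 CPM in CD34+ cells. Among the called decreases that met every condition of the rule for the largest changes, given under the processing, this was the largest except that of Ddah1 below (log2 fold change -3.54 ± 0.32, edgeR adjusted p = 2.30e-06). Defb4 went from 4.57 ± 1.08 to 0.509 ± 0.224 CPM, S100a8, a subunit of calprotectin, from 68.2 ± 22.6 to 16.8 ± 5.05 CPM, and Defb1 from 98.0 ± 11.7 to 45.9 ± 0.280 CPM. Lcn2, which binds bacterial siderophores, was the 1 gene called higher (2.62 ± 0.627 to 6.78 ± 1.35 CPM). Of 24 keratinocyte cytokines, 12 were called lower and 5 higher. Tslp, an alarmin, was at 720.5 ± 113 CPM in CD34- and 239.5 ± 52.5 CPM in CD34+ cells, but its counts equalled those of the overlapping gene 4930455D15Rik and cannot be assigned to either.

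**Figure D3:**
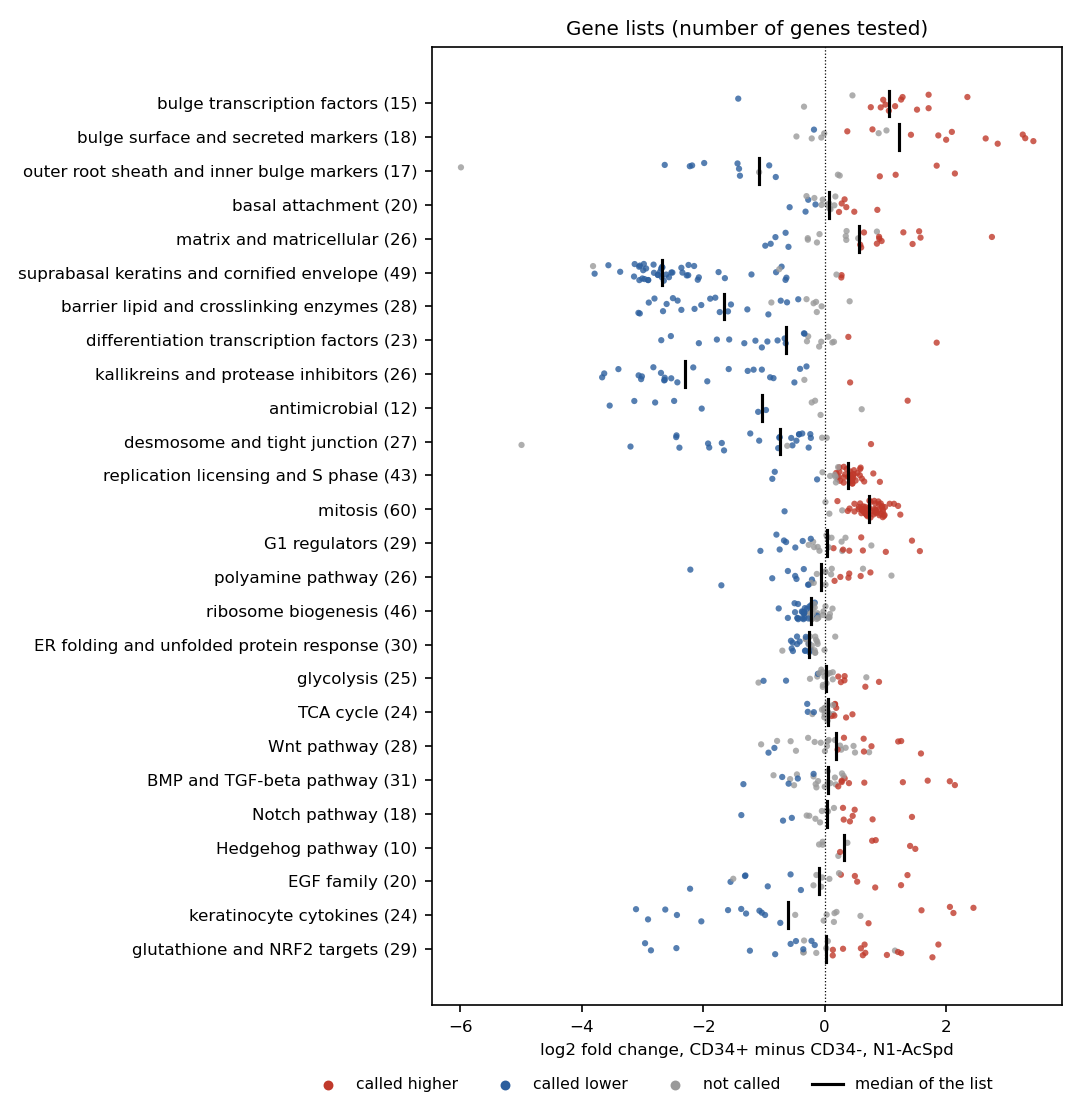
Log2 fold change (CD34+ minus CD34-, N1-AcSpd) of every tested member of 26 gene lists, 1 point per gene, coloured by call, with a black bar at the median of the list and the number of genes tested in parentheses. The bulge lists, mitosis and replication lie to the right of 0, the cornified envelope, barrier, protease, antimicrobial and junction lists to the left. Most pathway lists lie around 0, and the Hedgehog list lies to the right, with a median of 0.32.

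Most genes of the dividing cell were also higher in CD34+ cells. Of 60 mitosis genes, 56 were called higher and 1 lower, with a median of 0.74, and of 43 genes of replication licensing and S phase, 32 were called higher and 3 lower, with a median of 0.39. The summed level of the mitosis list lay between 1026 and 1214 CPM in the 4 CD34- libraries and between 1559 and 1939 CPM in the 4 CD34+ libraries. That of the replication list was not higher in CD34+ cells. It ran from 1566 to 1687 CPM in CD34- and from 1529 to 1600 CPM in CD34+ libraries. Over the alternatives, 47 to 58 mitosis genes were called higher.

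A short promoter element, the CHR, was searched here only as TTTGAA or TTCGAA. Together with CCAAT boxes, it puts many genes that peak in G2 and M phase under cell-cycle control. The promoters of the 3 mitosis genes with the highest mean CPM are shown for this reason, as the 250 bases before the start, 5′ to 3′ on the gene's strand, from RefSeq on GRCm38.p6; capitals mark CHR and CCAAT letters on either strand. Ube2c lies at chr2:164769679-164769928 on the plus strand, Ccnb1 at chr13:100786487-100786736 on the minus strand and Birc5 at chr11:117848987-117849236 on the plus strand.
Ube2c: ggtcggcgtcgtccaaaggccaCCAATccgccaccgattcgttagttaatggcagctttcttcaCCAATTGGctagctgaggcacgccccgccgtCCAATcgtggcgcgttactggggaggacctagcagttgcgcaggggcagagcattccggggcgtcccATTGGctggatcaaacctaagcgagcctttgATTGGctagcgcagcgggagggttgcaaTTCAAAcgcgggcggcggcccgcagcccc
Ccnb1: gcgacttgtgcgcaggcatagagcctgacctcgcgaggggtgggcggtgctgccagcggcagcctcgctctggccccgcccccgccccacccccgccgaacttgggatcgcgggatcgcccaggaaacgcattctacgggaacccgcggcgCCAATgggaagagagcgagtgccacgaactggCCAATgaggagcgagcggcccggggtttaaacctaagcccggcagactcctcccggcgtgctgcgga
Birc5: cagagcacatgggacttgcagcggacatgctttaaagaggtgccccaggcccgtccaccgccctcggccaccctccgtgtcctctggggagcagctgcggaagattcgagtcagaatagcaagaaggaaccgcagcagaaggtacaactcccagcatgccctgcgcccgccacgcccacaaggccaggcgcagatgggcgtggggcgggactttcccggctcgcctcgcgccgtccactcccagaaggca
The Ube2c stretch held 1 CHR match and 6 CCAAT matches, of which 2 overlap each other in CCAATTGG, the Ccnb1 stretch held 2 CCAAT matches, and the Birc5 stretch held neither. Over the whole 300-base windows, which run 50 bases past the start, TTTGAA or TTCGAA was found in 37 of the 51 mitosis promoters matched by symbol (72.5%), against 1607 of 10956 promoters of all genes tested (14.7%), 5254 of all 27025 promoters of the table (19.4%) and 7 of 35 replication promoters. TTCGAA reads the same on both strands, and TTTGAA was searched as TTCAAA too. CCAAT was found in 35 of 51 mitosis promoters (68.6%), 22 of 35 replication promoters (62.9%) and 38.9% of those of all genes tested. Among genes called higher and called lower, the CHR letters were in 15.8% and 14.8% of promoters. A match describes the letters in the window and not a bound site.

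Birc5, which encodes the chromosomal passenger survivin, was at 69.2, 60.9, 77.5 and 71.0 CPM in CD34- and at 129.8, 101, 119 and 115 CPM in CD34+ cells. All CD34+ values were above all CD34- values (log2 fold change 0.74 ± 0.12, adjusted p = 2.24e-04). Ccnb1, the mitotic cyclin B1, was at 57.8, 46.1, 59.4 and 55.8 CPM in CD34- and at 99.8, 69.5, 103 and 80.9 CPM in CD34+ cells. Ube2c, the E2 enzyme of the anaphase-promoting complex, went from 56.1 ± 2.68 to 91.0 ± 14.8 CPM. Nusap1, a spindle protein, had the largest called increase, from 15.2, 13.2, 15.9 and 17.5 CPM to 39.7, 31.3, 40.1 and 35.9 CPM (log2 fold change 1.25 ± 0.12). In the replication list Tk1, the S phase thymidine kinase, had the largest called increase (15.1 ± 2.49 to 28.5 ± 2.36 CPM), and Rrm2, a subunit of ribonucleotide reductase, was at 91.2 ± 11.3 and 104 ± 8.96 CPM and was not called (adjusted p = 0.119, edgeR), but was with mouse as a block (log2 fold change 0.19, adjusted p = 0.0154).

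The genes called lower in these lists were Plk4 in mitosis and, among the replication genes, Pola1, Pola2 and Prim2, subunits of DNA polymerase alpha. Pola2 was at 589 ± 27.4 CPM in CD34- and 324 ± 30.3 CPM in CD34+ cells and Pola1 at 146 ± 9.61 and 82.5 ± 7.37 CPM. Over the 16 libraries the counts of Sag, a gene of photoreceptors on another chromosome, were 1.15 to 1.18 times those of Pola2, and the SD of their log2 ratio, 0.0079, was below the 0.0224 that independent counts would give. The fall of Pola2 therefore cannot be assigned to that gene, and the same caution holds for Pola1 and Plk4 and for Wdr12 and Loxl2 of the ribosome biogenesis and matrix lists, whose log2 fold changes lay between -0.89 and -0.66.

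Regulators of G1 were split, with 8 of 29 called higher and 8 lower. Cdkn1a, which encodes the inhibitor p21, was at 116, 119.7, 107 and 108 CPM in CD34- and at 67.6, 72.9, 61.1 and 58.9 CPM in CD34+ cells. The groups lay far apart (log2 fold change -0.79 ± 0.08, adjusted p = 5.61e-06). Cdkn2b, which encodes p15, went from 4.68 ± 0.612 to 2.25 ± 0.449 CPM, while Cdkn2d, which encodes p19, a further inhibitor of CDK4 and CDK6, went up from 6.96 ± 0.569 to 20.7 ± 2.99 CPM. Ccnd2 was lower (231 ± 16.6 to 180.1 ± 13.8 CPM, together with the overlapping gene Gm43126) and Cdk4 slightly higher (108 ± 2.85 to 119.9 ± 3.82 CPM, together with Tspan31).

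Genes of biosynthesis were lower in CD34+ cells by small amounts. Of 46 ribosome biogenesis genes, 24 were called lower and 0 higher, with a median of -0.22, and of 30 genes of folding in the endoplasmic reticulum and the unfolded protein response, 14 were lower and 0 higher, with a median of -0.26. Under library totals the first list had 15 lower and 4 higher and the second 9 lower and 0 higher. Hspa5, which encodes the chaperone BiP, was at 192, 156, 211 and 192 CPM in CD34- and at 134, 123, 136 and 120.5 CPM in CD34+ cells, without overlap (log2 fold change -0.55 ± 0.09, adjusted p = 4.02e-04). Hsp90b1, which encodes the chaperone GRP94, went from 173 ± 25.1 to 139 ± 8.76 CPM, together with the overlapping gene 1810014B01Rik, and was not called in 8 alternatives, library totals among them. Npm1, the nucleolar chaperone nucleophosmin, went from 506 ± 17.4 to 421 ± 8.63 CPM. Ncl, nucleolin, was at 281 ± 16.4 and 240.5 ± 32.8 CPM and was not called.

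The polyamine pathway itself was divided: of 26 genes, 6 were called higher and 10 lower, with a median of -0.058 that became 0.059 under library totals. Oaz1, the antizyme that marks ornithine decarboxylase for degradation, was at 686, 715, 697 and 726 CPM in CD34- and at 763, 782, 798 and 826 CPM in CD34+ cells. The groups did not overlap, but the difference was small (log2 fold change 0.17 ± 0.03, adjusted p = 2.88e-04). Eif5a, the translation factor that carries hypusine made from spermidine, was lower (482 ± 12.1 to 418 ± 20.1 CPM; log2 fold change -0.21 ± 0.03, and -0.09 and not called under library totals), and its paralog Eif5a2 was at 0.483 ± 0.150 and 0.822 ± 0.153 CPM, called in the fit of all 16 libraries (0.76 ± 0.23, adjusted p = 0.0237) and not in 10 alternatives. Slc3a2, a chain of amino acid and polyamine transporters, was higher (207 ± 13.3 to 272 ± 36.6 CPM). Arg1, the arginase that makes ornithine, was the largest called decrease, at 0.490 ± 0.1004 and 0.0999 ± 0.0718 CPM, levels of a few UMIs per library, and was not called without mouse 1 or without mouse 4.

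Energy metabolism differed less. Of 25 glycolysis genes, 6 were higher and 3 lower (median 0.033), and of 24 genes of the TCA cycle, 7 were higher and 3 lower (median 0.053), so that 36.0% and 41.7% were called, against 33.3% of all genes. Hk2, the first enzyme of glucose use, was the largest called decrease of its list, at 77.2, 46.2, 61.3 and 50.7 CPM in CD34- and 31.5, 23.5, 30.4 and 31.9 CPM in CD34+ cells. Aldoc, an aldolase, had the largest called increase (2.31 ± 0.437 to 4.31 ± 1.32 CPM), a call lost without mouse 2. Ldha, lactate dehydrogenase A, was at 1379 ± 52.7 and 1278 ± 49.8 CPM (log2 fold change -0.11, not called in 7 alternatives and 0.01 under library totals). Pkm, at 784 ± 18.3 and 766 ± 43.0 CPM, was not called. Cs, citrate synthase, was lower (67.0 ± 1.12 to 55.0 ± 1.74 CPM). The UMIs of genes encoded by the mitochondrial genome took 0.976 ± 0.0477% of CD34- and 1.25 ± 0.0237% of CD34+ libraries. Their share was higher in CD34+ cells of all 4 mice. An exact two-sided permutation test that left out the pairing by mouse gave p = 0.0286, its smallest possible value. Adjusted over the 6 shares and totals tested by Benjamini-Hochberg, this p was 0.171.

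Of 28 Wnt genes, 8 were higher and 2 lower, so that 35.7% were called, close to the 33.3% of all genes. Among ligands, Wnt4 was lower (20.7, 23.0, 23.3 and 26.01 CPM to 11.4, 10.8, 13.7 and 13.2 CPM) and Wnt10a slightly higher (44.7 ± 1.69 to 52.0 ± 1.04 CPM). Among receptors, Fzd7 had the largest called increase of the list (1.66 ± 0.228 to 4.995 ± 0.296 CPM). Of 31 BMP and TGF-beta genes, 10 were higher and 5 lower (48.4% called). The BMP targets Id1 and Id3 were higher by 0.23 ± 0.07 and 0.28 ± 0.08 on the log2 scale. Id1 was not called in 7 of the fits that leave libraries out, nor Id3 in 2. Bmpr1b, a BMP receptor, was lower (1.03 ± 0.170 to 0.406 ± 0.101 CPM).

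Of 10 Hedgehog genes, 5 were higher and 0 lower. Boc, a co-receptor of Hedgehog ligands, was at 1.61, 1.77, 0.723 and 1.40 CPM in CD34- and at 3.16, 4.10, 3.87 and 4.46 CPM in CD34+ cells. Gli3, a transcription factor of the pathway, went from 2.48 ± 0.329 to 4.45 ± 0.719 CPM and Smo, its transducer, from 11.2 ± 0.611 to 13.4 ± 0.693 CPM. Of 18 Notch genes, 7 were higher and 3 lower (55.6% called). The ligand gene Jag1 was higher (20.1 ± 0.913 to 24.99 ± 2.88 CPM), and so was Lfng, which modifies the receptors (0.502 ± 0.0963 to 1.38 ± 0.392 CPM). Of 20 genes of the EGF family, 6 were higher and 7 lower (65.0% called). The ligand genes Epgn (31.6 ± 1.25 to 10.8 ± 1.68 CPM) and Nrg1 (25.4 ± 1.93 to 13.3 ± 0.889 CPM) were lower, and of the phosphatases that feed back on MAP kinases, Dusp6 was higher (9.49 ± 0.803 to 24.5 ± 3.34 CPM) and Dusp5 lower (6.47 ± 0.932 to 1.39 ± 0.488 CPM). Of 29 glutathione and NRF2 target genes, 12 were higher and 10 lower, from Gstm2 (7.07 ± 1.48 to 25.9 ± 1.87 CPM) to Gsta2 (2.36 ± 0.686 to 0.300 ± 0.0721 CPM), with a median of 0.028.

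Markers of other cells of skin were scarce or ambiguous. Of 12 fibroblast markers 4 passed the filter, with a summed level of 1.49 to 3.50 CPM in CD34- and 1.17 to 1.65 CPM in CD34+ libraries, and 1, Col1a2, was called lower (0.454 ± 0.323 to 0.0924 ± 0.0308 CPM), a call lost without CD34+ replicate 1 or 4 and without mouse 2 or 4. Of 11 melanocyte markers 4 passed and 0 were called, and the summed level was between 28.0 and 32.9 CPM, most of it from Mitf and Pmel, which share counts with overlapping genes. Of 7 endothelial markers 2 passed, and Pecam1 was at 1926 ± 58.1 and 1756 ± 52.6 CPM. Its counts kept a ratio of 1.15 to 1.18 with Sec61a1, a gene on another chromosome, over the 16 libraries. Unlike that of Pola2 and Sag, the SD of this log2 ratio, 0.0120, was not below the 0.0101 that independent counts would give. Of 13 immune markers 6 passed, 2 higher and 2 lower, and the higher Epcam (16.0 ± 0.671 to 36.1 ± 3.84 CPM) is also a gene of epithelial cells. The calls of Cd68 (lower) and H2-Ab1 (higher) were each lost in several alternatives, the fit without mouse 3 among them. Of 8 Merkel cell markers 2 passed, with summed levels of 3.08 CPM or less. Of 11 sebocyte markers 5 passed and 4 were lower, with summed levels of 1650 to 2356 CPM in CD34- and 421 to 598 CPM in CD34+ cells. That sum was mostly Fabp5, a fatty acid binding protein that differentiating keratinocytes also express, which went from 2256, 1548, 1898 and 1689 CPM to 525, 454, 508 and 342 CPM. The part of these cells in the differences between the fractions was not tested.

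The same fractions were also sorted from untreated cultures of these mice, which allows the question whether the distance between stem cells and progenitors differed with N1-AcSpd. The fit of all 16 libraries called 0 genes for this difference at an adjusted p under 0.05 (edgeR). At an unadjusted p under 0.05 there were 799 genes, 4.19% of those tested, and DESeq2 called 72 at its adjusted threshold. Medians of the lists in both conditions lay close together for most: the bulge transcription factors had a median of 1.06 with N1-AcSpd and 1.03 without, the cornified envelope list -2.67 and -2.49, and the protease list -2.29 and -2.23.

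In the mitosis list the values with N1-AcSpd were mostly the larger. The median log2 fold change was 0.74 with N1-AcSpd and 0.51 without, and 56 of 60 genes were called higher with it and 45 without. The difference was positive for 58 genes and negative for 2, against 9129 and 9920 of all genes tested. Differences were mostly positive in the basal attachment (18 of 20), replication (34 of 43), matrix (20 of 26) and glycolysis (19 of 25) lists. They were mostly negative in the barrier (20 of 28), EGF family (14 of 20) and ribosome biogenesis (30 of 46) lists. At an unadjusted p under 0.05 the difference held for 7 of the 60 mitosis genes (11.7%, against 4.19% of all genes), and it was called for 0. Other lists had higher shares: 20.7% of glutathione and NRF2 targets, 16.7% of antimicrobial genes, 16.0% of glycolysis genes, 6 of 43 replication genes and 11.8% of outer root sheath and inner bulge markers. The median difference was 0.23 in the mitosis list, -0.23 in the antimicrobial list and 0.08 in the replication list. Mitosis genes are expressed together and are not independent of each other. Birc5 had 0.74 ± 0.12 with and 0.55 without N1-AcSpd (adjusted p of the difference = 1), and Ube2c 0.70 and 0.42 (adjusted p = 1). The replication list had medians of 0.39 and 0.30.

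Of genes that are not unnamed models, those with the smallest p for the difference in each direction were Cyp2b10, a cytochrome P450, and Cspg4, neither of them called. Cyp2b10 was at 23.5, 20.4, 22.2 and 20.7 CPM in CD34- and at 8.28, 7.91, 8.59 and 9.10 CPM in CD34+ cells with N1-AcSpd, a log2 fold change of -1.36, against -0.70 without (adjusted p of the difference = 0.411). Cspg4 had 3.36 with and 2.59 without (adjusted p = 1). Sostdc1, singled out here after its value was seen, had 2.15 and 1.44 (adjusted p = 1). In each of these the fractions lay further apart with N1-AcSpd than without, by amounts that did not pass the correction over all genes. All were picked by values already seen, so they describe no pattern over genes.

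**Figure D4:**
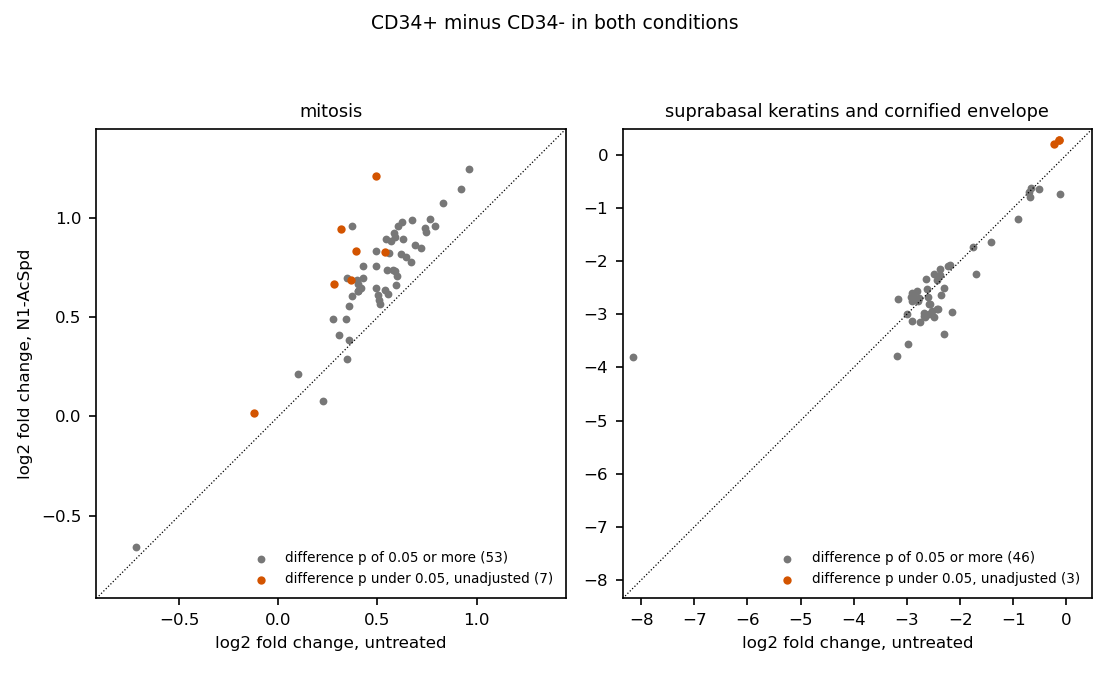
Log2 fold change (CD34+ minus CD34-) with N1-AcSpd against that in untreated cultures for 60 mitosis genes (left) and 49 suprabasal and cornified envelope genes (right), 1 point per gene, orange where the difference between conditions had an unadjusted p under 0.05, with a dotted line of equality. In the left panel 58 of 60 points lie above the line, and in the right panel 23 of 49 do.

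The rule for the largest changes also named 3 genes whose values turned on single libraries. Pdzd2 was at 3.31, 3.47, 2.70 and 228.5 CPM in CD34+ libraries and at 1.46 to 1.60 CPM in CD34- libraries, and in the untreated CD34+ libraries at 56.6 ± 106 CPM. Ddah1 was at 509.7 CPM in CD34- replicate 2 and at 1.03 or less in the other 7 libraries. Pgm2l1 was at 8.43, 0.911, 9.02 and 8.81 CPM in CD34+ libraries. Each of the 3 shared its counts with a processed pseudogene inside its borders, Gm2606, Rpl36a-ps2 and Gpx2-ps1 respectively, and with mouse as a block neither Pdzd2 nor Ddah1 was called (adjusted p = 0.1905 and 0.1099, edgeR). Leaving out CD34+ replicate 4 took the log2 fold change of Pdzd2 from 5.26 to 1.03.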

How the data were processed

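The deposited table held UMI counts, whole numbers of unique molecular tags per gene and library, with no normalization. Per the study's methods, the authors separated paired reads by barcode, assigned reads to mouse mm10 with kallisto, placed the tags on genes with BEDTools and counted unique tags per gene. The submitters' processing notes give FastQC 0.11.7 and kallisto 0.45.0. Strand handling is not given in the sources used here, so overlapping genes can share counts. UMIs remove copies made by PCR, but how tags that map to several loci were counted was not tested.

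Empty cells (156050 over 32989 identifiers and 16 libraries) were read as 0. The 62 identifiers without a gene in GENCODE vM21 (GRCm38) held 0.116% of counts. Group and mouse came from the labels. The 4 mice gave all groups, so same-numbered libraries came from the same animal, and their deviations from the group means correlated by -0.0158 to 0.0468 between the fractions of a mouse. None of the 24 pairs of libraries within groups agreed within sampling noise. Nothing says that more than 1 culture per mouse and group was sequenced.

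Genes averaging 5 or more UMIs per library over all 16 (19049) were fitted together with edgeR 4.0.16 (R 4.3.3), 1 mean per group, TMM scaling and the quasi-likelihood F test, with Benjamini-Hochberg adjustment over all genes. Shares of UMIs were compared by exact two-sided permutation tests (scipy 1.17.1). These took the 8 libraries as independent and did not use the pairing by mouse. The fit was tested on simulated data of this comparison, in which 200 of 19049 genes were changed. It recovered 41% of 100 changes of 0.5 and 55% of 100 changes of 1 on the log2 scale. Of those with a mean count of at least 50 it recovered 70.7% and 86.2%, with 4 false calls in all. Far more genes, 6347, were called in the data, so these rates need not hold for them. Alternatives were other size factors, filters, thresholds and tools (DESeq2 1.42.0), libraries thinned to equal depth, the 8 N1-AcSpd libraries alone, mouse as a block, and each library or mouse left out. Leaving out genes that share counts with an overlapping gene (one with at least 25% of the count and a correlation over 0.9) was added after seeing the data. The comparison, the gene lists and the rule for named genes were chosen with earlier results of these data known. The rule took the 10 largest called increases and decreases with a mean count of at least 50, the same sign in 4 mice, counts in at least 7 of the 8 libraries and no unnamed model, pseudogene or near-identical neighbour. To these it added, for each list, the 3 members with the highest CPM and the largest called change each way, the fraction markers, and the gene with the smallest p each way for the difference between conditions. Prim2 and the genes set beside Pola2 and Pecam1 were named after their values were seen. Promoters came from RefSeq on GRCm38.p6.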

Additional observations from a re-analysis of the deposited data

Results flagged for a closer look

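In 15 of 246 groups of 4 libraries examined for the genes named and for library totals, 1 library stood apart from the other 3 of its group by Dixon's 95% criterion, of which chance gives about 1 in 20. In CD34+ replicate 1 the total was 26233887 UMIs, the highest of its group. Among genes that share counts with a pseudogene these were Pdzd2 (228.5 CPM in 1 CD34+ library), Pgm2l1 (0.911 CPM in 1 CD34+ library) and Ddah1 (509.7 CPM in 1 CD34- library).

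Among regulators of the follicle and epidermis, the highest CD34+ library of Sox9 held 85.0 CPM and the lowest of Prdm1 0.411 CPM. Sox9 and Prdm1 kept their direction and call without any single library. In signalling genes, Fzd7 was at 4.555 CPM in its lowest and Jag1 at 29.25 CPM in its highest CD34+ library, and Nrg1 was at 22.6 CPM in its lowest CD34- library. For adhesion genes, Itga6 reached 58.4 CPM and Dsg2 4.65 CPM in 1 CD34- library each. Of differentiation genes, Sprr2a2 was at 6598 CPM in its highest CD34- library and S100a9 at 2.88 CPM in its lowest CD34+ library. The highest CD34- library of Ldha held 1457 CPM and the lowest of Ube2c 52.1 CPM.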

How the results depend on the processing

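Against 6347 called genes, separate fits called between 5564 and 6697 under other size factors, filters, DESeq2, thinning or the 8 libraries alone, 5580 to 5940 with 1 library left out and 4927 to 5097 with 1 mouse left out. With mouse as a replicate block, 6647 were called (3250 higher, 3397 lower), and among 152 named genes the block ended the calls of Pdzd2 and Ddah1 and added Rrm2 and Cebpb. Library totals gave 4794 higher and 1903 lower. A log2 fold change over 0.5 left 3197 genes (1717 higher, 1480 lower), or 3644 (1975 and 1669) at an unadjusted p. Without genes that share counts, chosen after seeing the data, 4703 of 14569 genes were called. For the difference between conditions, 0 genes were called with the replicate block, 72 by DESeq2 and 376 at an unadjusted p with a change over 0.5; leaving out libraries or mice gave 0 to 11, the most without mouse 3. Under library totals Ldha turned to 0.008005 and the medians of the polyamine pathway and the EGF family to 0.05863 and 0.01678, and without genes that share counts the polyamine median was 0.0108. Some medians changed sign when libraries or mice were left out: G1 regulators ranged from -0.006825 to 0.1034, glycolysis from -0.04003 to 0.06862, glutathione and NRF2 targets from -0.1528 to 0.04946, melanocyte markers from -0.588 to 0.08465, fibroblast markers from -1.502 to 0.02018 and Merkel cell markers from -1.15 to 0.1734. For these changes the cause was not tested. Depth limits genes of a few UMIs, such as Arg1 and Col1a2.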

Other observations

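Several genes kept nearly fixed ratios with genes on other chromosomes over the 16 libraries, a pattern looked for after their values were seen. The counts of Lhfpl4 were 0.980 to 0.999 times those of Pola2, and those of Sag 1.15 to 1.18 times. The log2 fold changes of the 3 genes were -0.88 (Lhfpl4), -0.87 (Sag) and -0.86 (Pola2). The counts of Slc39a2 were 0.944 to 0.973 times those of Pecam1, with an SD of the log2 ratio of 0.01175, against 0.01058 for independent counts. For scale, the counts of Cdk1 were 0.3982 to 0.4995 times those of Birc5, and those of Krt5 0.192 to 0.248 times those of Krt14. Whether these genes share reads was not tested.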
